A study of Arabidopsis thaliana with 6 samples.

Results

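The genes described here are the alternative oxidases and type II NAD(P)H dehydrogenases of Arabidopsis thaliana mitochondria, 10 genes of the 24193 in the deposited expression table. The rule that picks them names loci and uses no values, but it was set with earlier results of these data known. The genes are 4 alternative oxidases (AOX1A, AOX1C, AOX1D and AOX2) and 2 dehydrogenases of the inner, matrix-facing side of the membrane (NDA1 and NDA2). The other 4 are dehydrogenases of its outer side (NDB1, NDB2, NDB3 and NDB4). RNA came from whole seedlings kept 6 days in darkness, in 3 libraries of lon1-1, a mutant line of the mitochondrial matrix protease gene LON1, and 3 libraries of wt, the Col-0 wild type. Both genotypes had the same growth conditions, the labels name no treatment beyond darkness, and the mutant is represented by 1 allele. The labels call the replicates independent biological replicates. The sample titles name the genotypes, while the genotype field reads Col-0 for all 6 libraries.

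Plant mitochondria can pass electrons around the proton pumps of the respiratory chain. Type II dehydrogenases oxidise NADH or NADPH and hand the electrons to ubiquinone without pumping protons, so they bypass complex I. Alternative oxidase takes electrons from ubiquinol and reduces oxygen to water, and so bypasses complex III, cytochrome c and complex IV. AOX1A is the textbook reporter gene of signalling from disturbed mitochondria to the nucleus, in which NAC transcription factors such as NAC013 and NAC017 bind a short promoter sequence, the mitochondrial dysfunction motif. That motif has 2 forms here: CTTG, then 5 bases of any kind, then CAAG or CACG.

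The values are FPKM, fragment numbers scaled to transcript length and to library size, so levels of different genes are set side by side per length. The spacing of low values of short transcripts put the depth at about 34250000 to 35250000 fragments in the lon1-1 libraries and 32750000 to 33000000 in the wt libraries. LON1 (AT5G26860), the gene mutated in lon1-1, had 2.67, 2.61 and 2.79 FPKM in lon1-1 A, B and C, and 4.69, 4.70 and 4.69 FPKM in wt A, B and C, a log2 fold change of -0.63. No library stood apart from its genotype: the lowest correlation of log2 values between libraries of 1 genotype was 0.997 and the highest between genotypes was 0.936, both across genes. The seedling label was checked with markers. The dark-seedling markers PORA, PHYA, HLS1 and ICL were at means of at least 7.22 FPKM in lon1-1 and 7.8 FPKM in wt. The floral genes AG, SEP3, AP3 and PI were at no more than 0.0533 FPKM in lon1-1 and 0.577 FPKM in wt. The dark-seedling markers differed between the genotypes in both directions. ICL was higher, with 5863.7 FPKM in lon1-1 and 1296.3 FPKM in wt (log2 fold change 2.18). PORA (log2 fold change -0.83) and PHYA (-0.24) were lower, and HLS1 was not called. Whether the seedlings of both genotypes were at the same stage was not tested. The RNA is from whole seedlings, so more or fewer cells of a type and more or less RNA per cell cannot be told apart. Summed root markers ran from 109 to 112 FPKM in lon1-1 and from 80.6 to 86.5 FPKM in wt, with 4 of the 5 tested of 6 markers higher and none lower, against 44.7% and 32.3% of all tested genes. The lower count became 1 under median-ratio and under upper-quartile scaling. The root hair regulator RHD6 averaged 6.90 FPKM in lon1-1 and 1.77 FPKM in wt, and the root hair expansin EXPA7 15.9 FPKM in lon1-1 and 7.47 FPKM in wt. GL2 averaged 5.91 FPKM in lon1-1 and 3.69 FPKM in wt, and PHO1 68.3 FPKM in lon1-1 and 55.5 FPKM in wt. SCR (13.6 FPKM in lon1-1, 14.4 FPKM in wt) was not called and PLT1 (0.387 FPKM in lon1-1, 0.353 FPKM in wt) was below the filter used for testing. Summed shoot markers ran from 2.74 to 3.37 FPKM in lon1-1 and from 5.56 to 5.62 FPKM in wt. The shoot meristem gene STM, the 1 tested of 4, was lower, with 2.33 FPKM in lon1-1 and 4.73 FPKM in wt (log2 fold change -0.79). CLV3 was at 0.05 FPKM in lon1-1 and 0.0533 FPKM in wt. SPCH averaged 0.40 FPKM in lon1-1 and 0.427 FPKM in wt, and FAMA 0.233 FPKM in lon1-1 and 0.377 FPKM in wt. The summed root and shoot markers thus differed in opposite directions. STM made up most of the shoot sum and PHO1 most of the root sum. The part of these shifts in the results below was not tested.

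Changes were tested by limma on log2(FPKM + 1), with p adjusted over all 18308 genes that reached 1 FPKM in at least 3 libraries, and a log2 fold change is lon1-1 minus wt on that scale. The added 1 shrinks the changes of genes near or below 1 FPKM, so ratios of mean FPKM are given beside it. Of the 10 genes, 7 passed the filter and 3 (AOX1C, AOX2 and NDA1) did not. The libraries of the genotypes did not overlap for 6 of the 7, against 79.1% of all tested genes. Among the 7, limma called 5 higher in lon1-1 (AOX1A, NDB1, NDB2, NDB3 and NDB4) and 1 lower (AOX1D), and NDA2 was not called. The background is high: 77.0% of all tested genes were called, 44.7% higher and 32.3% lower, and every count of called genes below is to be read against these shares. AOX1D passed the filter through its wt libraries alone, and NDB3 and NDB4 through their lon1-1 libraries alone, so their calls and the median of the 7 are given as description. That median log2 fold change was 0.85, against 0.08 for all tested genes.

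**Figure D1:**
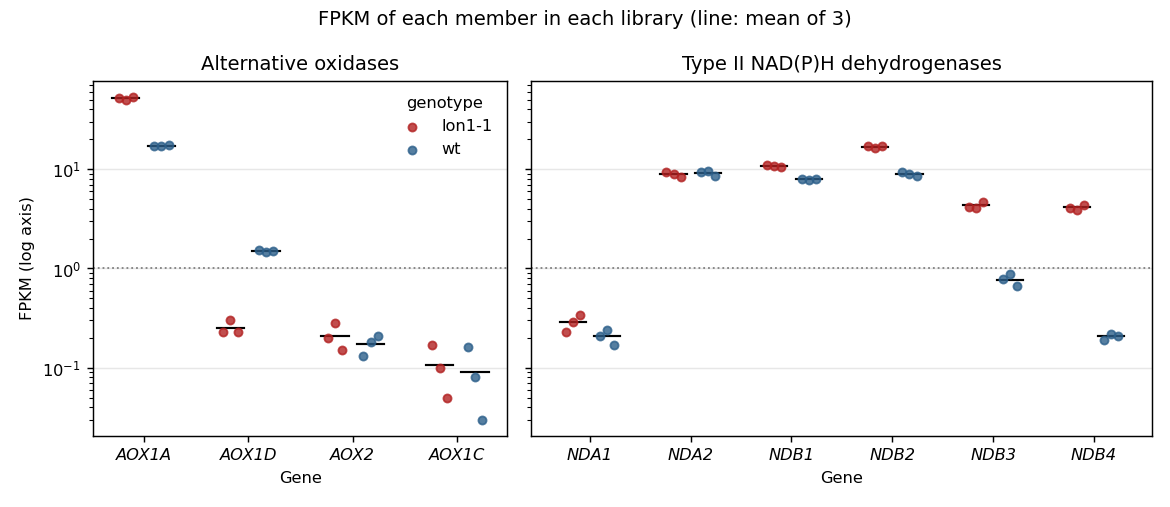
FPKM of the 10 genes on a log axis, alternative oxidases in the left panel and type II dehydrogenases in the right panel. Each point is 1 library (red lon1-1, blue wt), each black line the mean of 3 libraries, and the dotted line 1 FPKM. The genotypes do not overlap for AOX1A, AOX1D, NDB1, NDB2, NDB3 and NDB4.

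AOX1A (AT3G22370) encodes the main alternative oxidase of Arabidopsis and was the most abundant of the 10 transcripts in both genotypes. It had 52.3, 50.01 and 53.18 FPKM in lon1-1 A, B and C, and 17.1, 17.32 and 17.34 FPKM in wt A, B and C. Every lon1-1 library lay far above every wt library. The means were 51.8 ± 1.64 FPKM in lon1-1 and 17.3 ± 0.133 FPKM in wt (SD, n = 3 each), a 3.00-fold rise. The log2 fold change was 1.53 (SE 0.035, limma adjusted p = 3.32e-10), larger than that of 98.9% of tested genes. In lon1-1 the mean level of AOX1A exceeded that of 90.6% of all listed genes, and in wt that of 74.7%.

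AOX1A lies on the plus strand at chr3:7906521-7908746 of RefSeq's TAIR10.1 assembly, with 4 exons and 354 encoded residues. Its nearest upstream neighbour is its tandem paralog AOX1B (AT3G22360), which ends 944 bases before it on the same strand. AOX1B is not among the genes of the deposited expression table, so it has no level here. The 250 bases before the annotated start of AOX1A (chr3:7906271-7906520) are shown because AOX1A is the member with the highest level. Capitals mark matches to the W-box forms TTGACC and TTGACT, the core bound by WRKY factors.
AOX1A upstream: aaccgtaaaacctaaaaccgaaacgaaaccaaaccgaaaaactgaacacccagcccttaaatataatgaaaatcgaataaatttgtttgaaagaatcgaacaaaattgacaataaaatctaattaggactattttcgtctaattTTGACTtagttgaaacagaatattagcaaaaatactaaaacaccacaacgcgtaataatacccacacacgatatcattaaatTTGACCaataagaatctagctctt
Both forms of the mitochondrial dysfunction motif were found at the start of AOX1A itself. The first (chr3:7906514-7906534, with 4 bases on either side of the match) spans the annotated gene start, and the second (chr3:7906541-7906561) begins 24 bases inside the gene, in the transcribed part. Capitals mark the match.
AOX1A first site: agctCTTGGCGACCACGcaag
AOX1A second site: ccatCTTGCTCTCCAAGaaaa

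AOX1D (AT1G32350) encodes another alternative oxidase, whose transcript is known from senescing leaves, and it went the other way. It had 0.23, 0.30 and 0.23 FPKM in lon1-1 A, B and C, and 1.55, 1.47 and 1.51 FPKM in wt A, B and C. The wt libraries were tightly grouped and all above the lon1-1 libraries. Its mean was 0.253 ± 0.0404 FPKM in lon1-1 and 1.51 ± 0.04 FPKM in wt (SD, n = 3 each), 5.96-fold lower in lon1-1. On the log2(FPKM + 1) scale it fell by 1.00 (SE 0.070, limma adjusted p = 6.85e-07), and 4.7% of tested genes had a more negative log2 fold change. The gene lies on the minus strand at chr1:11666886-11668690 with 4 exons and 318 encoded residues. Its upstream 250 bases (chr1:11668691-11668940, given on the gene's strand) are shown as those of the member that fell, with a match to TTGACC in capitals.
AOX1D upstream: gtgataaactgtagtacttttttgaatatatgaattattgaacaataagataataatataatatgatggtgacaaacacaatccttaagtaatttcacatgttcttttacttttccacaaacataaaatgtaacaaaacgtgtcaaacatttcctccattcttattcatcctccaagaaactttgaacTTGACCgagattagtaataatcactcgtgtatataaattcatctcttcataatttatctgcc
No match to the dysfunction motif was found in the 1000 bases before its start codon.

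AOX2 (AT5G64210) and AOX1C (AT3G27620) stayed near the detection limit. AOX2, an isoform known from seeds, had 0.20, 0.28 and 0.15 FPKM in lon1-1 A, B and C, and 0.13, 0.18 and 0.21 FPKM in wt A, B and C. These values correspond to an estimated 6.0 to 11.1 fragments per lon1-1 library and 4.9 to 7.9 per wt library. AOX1C had 0.17, 0.10 and 0.05 FPKM in lon1-1 A, B and C, and 0.16, 0.08 and 0.03 FPKM in wt A, B and C, an estimated 2.1 to 6.8 fragments in lon1-1 and 1.1 to 6.2 in wt. The genotypes overlapped for both genes, and the ratio of mean FPKM, lon1-1 over wt, was 1.21 for AOX2 and 1.19 for AOX1C. Fitted without the filter, where 63.9% of 24193 genes were called, 35.9% higher and 28.0% lower, the log2 fold change was 0.04 for AOX2 (95% interval -0.07 to 0.16, limma adjusted p = 0.475) and 0.02 for AOX1C (-0.11 to 0.16, adjusted p = 0.759). A difference was not detectable at this depth. Of 4 tested seed storage and maturation markers of 6, 1 was higher and 2 were lower. The storage protein gene CRA1 was higher, with 61.0 FPKM in lon1-1 and 25.2 FPKM in wt. The oil body gene OLEO1 was lower, with 2.91 FPKM in lon1-1 and 4.27 FPKM in wt, as was the storage protein gene SESA1, with 0.77 FPKM in lon1-1 and 4.10 FPKM in wt. SESA1 passed the filter through wt alone, and the lower count became 1 when any wt library was left out. CRU3 was not called, and EM1 and EM6 were below the filter. The part of these differences in the AOX2 values was not tested.

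With these isoforms together, alternative oxidase transcripts summed to 52.9, 50.69 and 53.61 FPKM in lon1-1 A, B and C, and to 18.94, 19.05 and 19.09 FPKM in wt A, B and C. The sum in lon1-1 was 2.75 times that in wt. AOX1A supplied 98.9 ± 0.272% of it in lon1-1 and 90.7 ± 0.344% in wt (SD, n = 3 each). AOX1D supplied 0.485 ± 0.0924% in lon1-1 and 7.94 ± 0.235% in wt. The alternative oxidase pool was thus almost wholly AOX1A in lon1-1, while in wt AOX1D added a share well above the spread between libraries. How fragments that fit several genes were shared out is not given in the sources used here. The longest exact stretch that the transcripts of 2 of the 4 isoforms share is 34 bases, between AOX1A and AOX1C, whose aligned coding bases are 79.8% identical. The longest stretch that AOX1A shares with AOX1B is 26 bases, and AOX1B and AOX1C share up to 42.

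Among the dehydrogenases, the 2 genes of the inner side did not pass the threshold. NDA2 (AT2G29990, minus strand, chr2:12793320-12796085) had 9.38, 9.03 and 8.28 FPKM in lon1-1 A, B and C, and 9.45, 9.53 and 8.45 FPKM in wt A, B and C. The ranges of the genotypes overlapped over most of their width. Its log2 fold change was -0.04 (limma adjusted p = 0.616), and the 95% interval of -0.17 to 0.10 corresponds to 0.886- to 1.07-fold on the FPKM + 1 scale. An estimated 487.3 to 565.7 fragments per library lay behind these values.

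NDA1 (AT1G07180, plus strand, chr1:2204104-2207099) is the inner-side gene known to depend on light, and was low in these dark-grown seedlings. It had 0.23, 0.29 and 0.34 FPKM in lon1-1 A, B and C, and 0.21, 0.24 and 0.17 FPKM in wt A, B and C, or an estimated 15.7 to 23.8 fragments in lon1-1 and 11.1 to 15.8 in wt. The lowest lon1-1 library lay below the highest wt library. For NDA1 the ratio of mean FPKM, lon1-1 over wt, was 1.39. Without the filter its log2 fold change was 0.09 (95% interval -0.01 to 0.20, limma adjusted p = 0.105). Nuclear light-responsive photosynthesis genes were lower in lon1-1 in 8 of 8 members, against 32.3% of all tested genes. Their sums were 572 to 594 FPKM in lon1-1 and 3335 to 3437 FPKM in wt. With the few fragments given above, NDA1 did not pass the test in either direction. Whether NDA1 changed with these genes was not tested.

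The 4 outer-side genes all rose. NDB2 (AT4G05020) encodes the calcium-stimulated external NADH dehydrogenase that is known to be expressed together with AOX1A. It had 17.24, 16.31 and 17.04 FPKM in lon1-1 A, B and C, and 9.40, 8.91 and 8.48 FPKM in wt A, B and C, with no overlap. The means of 16.9 ± 0.49 FPKM in lon1-1 and 8.93 ± 0.46 FPKM in wt (SD, n = 3 each) differed 1.89-fold, a log2 fold change of 0.85 (SE 0.048, limma adjusted p = 1.53e-07). The gene lies on the plus strand at chr4:2572427-2576599, and its value also counts 1 transcript model that the authors added to the 2 of the annotation. Before it, 2 sites match the dysfunction motif, and both are shown with 4 bases on either side (chr4:2571771-2571791 and chr4:2572344-2572364).
NDB2 distal site: ggttCGTGATGATCAAGaggt
NDB2 proximal site: ctggCTTGGCCACCAAGattg
The distal match is to the second form read on the opposite strand.

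NDB1 (AT4G28220, plus strand, chr4:13992210-13995831), the external enzyme that oxidises NADPH, had the smallest rise of the 4. It had 11.1, 10.83 and 10.63 FPKM in lon1-1 A, B and C, and 8.06, 7.70 and 7.88 FPKM in wt A, B and C. The genotypes were apart by more than the spread within either. The means were 10.9 ± 0.236 FPKM in lon1-1 and 7.88 ± 0.18 FPKM in wt (SD, n = 3 each), a 1.38-fold rise with a log2 fold change of 0.42 (SE 0.045, limma adjusted p = 1.43e-05). This change exceeded that of 76.6% of tested genes, so it lay within the bulk of the transcriptome.

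NDB3 (AT4G21490, minus strand, chr4:11436326-11439506), close in sequence to NDB2, had 4.19, 4.10 and 4.66 FPKM in lon1-1 A, B and C, and 0.78, 0.87 and 0.66 FPKM in wt A, B and C. All wt libraries were below 1 FPKM and all lon1-1 libraries above 4. The means of 4.32 ± 0.301 FPKM in lon1-1 and 0.77 ± 0.105 FPKM in wt (SD, n = 3 each) differed 5.61-fold, with a log2 fold change of 1.59 (SE 0.074, limma adjusted p = 3.99e-08). NDB2 and NDB3 share 84.5% of aligned coding bases and an exact stretch of 37 bases at most, and 0.68% of the 31-base words of the shorter transcript. A site of the dysfunction motif before NDB3 (chr4:11439616-11439636, on the gene's strand) is shown for comparison with those of AOX1A and NDB2. It matches the second form on the opposite strand, and its last 2 matched bases also belong to a W-box form.
NDB3 site: ttgcCGTGGCCGTCAAGtcaa

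NDB4 (AT2G20800, minus strand, chr2:8953057-8955831), an external NADH dehydrogenase that calcium does not stimulate, had the largest relative change of the 10. It had 4.11, 3.89 and 4.41 FPKM in lon1-1 A, B and C, and 0.19, 0.22 and 0.21 FPKM in wt A, B and C. Behind these stood an estimated 256.3 to 294.7 fragments per lon1-1 library and 11.9 to 13.8 per wt library, so the gene was detected at a low level in wt. The means of 4.14 ± 0.261 FPKM in lon1-1 and 0.207 ± 0.0153 FPKM in wt (SD, n = 3 each) differed 20.02-fold. On the log2(FPKM + 1) scale the change was 2.09 (SE 0.069, limma adjusted p = 3.56e-09), and with 0.1 in place of 1 it was 3.79. Its upstream 250 bases (chr2:8955832-8956081, on the gene's strand) are shown because it changed most. Capitals mark a match to the W-box form TTGACT on the opposite strand.
NDB4 upstream: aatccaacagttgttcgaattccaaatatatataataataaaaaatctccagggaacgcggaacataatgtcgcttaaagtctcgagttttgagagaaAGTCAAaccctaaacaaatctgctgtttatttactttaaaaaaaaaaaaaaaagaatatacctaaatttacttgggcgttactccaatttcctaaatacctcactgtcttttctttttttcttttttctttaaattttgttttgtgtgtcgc
The 1000 bases before its start codon held no match to either form of the dysfunction motif.

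**Figure D2:**
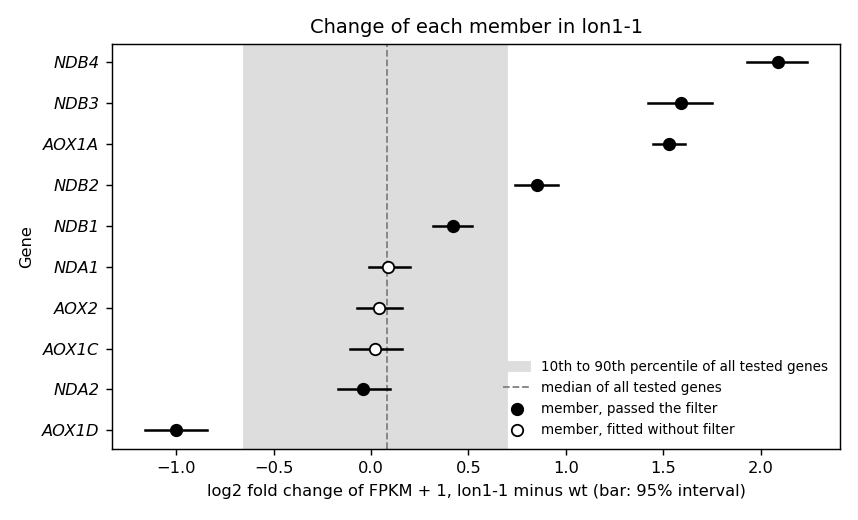
Log2 fold change of FPKM + 1 (lon1-1 minus wt) of each gene with its 95% interval. Filled points passed the filter and open points were fitted without it, the grey band spans the 10th to the 90th percentile of all tested genes (-0.65 to 0.70) and the dashed line is their median (0.08). NDB4, NDB3, AOX1A and NDB2 lie above the band and AOX1D below it.

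The dehydrogenase pool differed in size and make-up. Its summed level was 46.25, 44.45 and 45.36 FPKM in lon1-1 A, B and C, and 28.09, 27.47 and 25.85 FPKM in wt A, B and C, 1.67 times as high in lon1-1. The outer-side genes made up the difference, with sums of 36.2 ± 0.902 FPKM in lon1-1 and 17.8 ± 0.605 FPKM in wt (SD, n = 3 each), while the inner-side genes summed to 9.18 ± 0.509 FPKM in lon1-1 and 9.35 ± 0.635 FPKM in wt. NDA2 supplied 19.6 ± 1.18% of the dehydrogenase FPKM in lon1-1 and 33.7 ± 1.00% in wt. NDB4 supplied 9.12 ± 0.526% in lon1-1 and 0.763 ± 0.0754% in wt, and NDB3 9.52 ± 0.659% in lon1-1 and 2.83 ± 0.311% in wt. NDB2 was the largest contributor in lon1-1 with 37.2 ± 0.445%, and in wt it supplied 32.9 ± 0.521%. The share of NDB1 was smaller in lon1-1, with 23.9 ± 0.468% in lon1-1 and 29.1 ± 1.27% in wt. Oxidase transcripts per dehydrogenase transcript stood at 1.16 ± 0.023 in lon1-1 and 0.702 ± 0.033 in wt, and AOX1A per NDB2 at 3.07 ± 0.0441 in lon1-1 and 1.94 ± 0.113 in wt. For these ratios, too, no lon1-1 library overlapped a wt library.

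**Figure D3:**
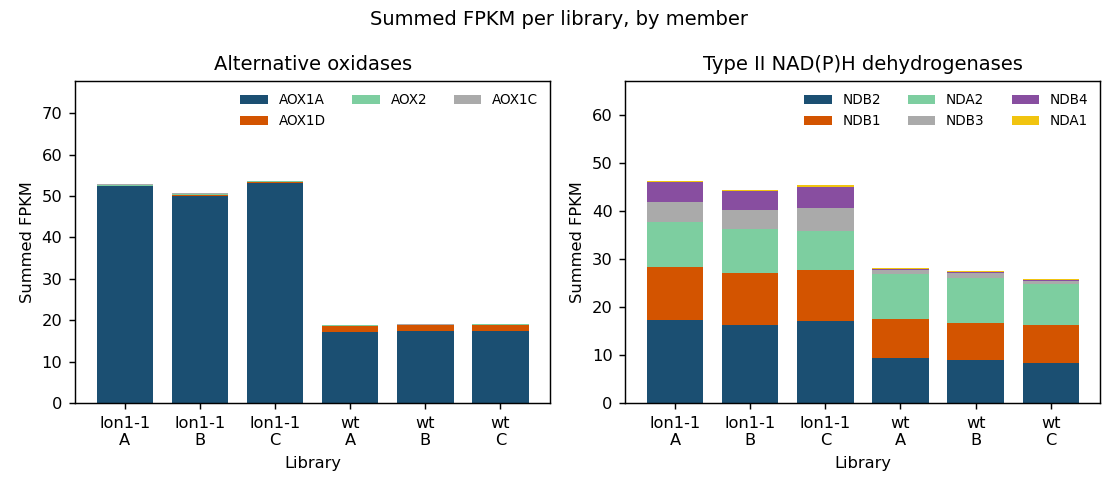
Summed FPKM of the alternative oxidases (left) and of the type II dehydrogenases (right) in each library, stacked by gene, with lon1-1 A to C left of wt A to C. The oxidase bars are nearly all AOX1A, and the NDB3 and NDB4 segments are visible in the lon1-1 bars and thin in the wt bars.

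The order of levels differed between the genotypes below the first place. In lon1-1 it ran AOX1A, NDB2, NDB1, NDA2, NDB3, NDB4, NDA1, AOX1D, AOX2 and AOX1C from high to low. There NDB3 and NDB4 did not differ beyond their spread, nor did neighbours among NDA1, AOX1D, AOX2 and AOX1C. In wt the order was AOX1A, NDA2, NDB2, NDB1, AOX1D, NDB3, NDB4, NDA1, AOX2 and AOX1C, where NDA2 and NDB2 overlapped, as did neighbours among the last 4. AOX1D thus stood below NDB3 and NDB4 in lon1-1 and above both in wt.

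Upstream sequence was searched on both strands. In the 1000 bases before the annotated gene start, the dysfunction motif had a match before 3 of the 10 genes (NDA1, NDB2 and NDB3), against 4.40% of 27443 protein-coding genes, and before 5 of 13 other genes of the mitochondrial dysfunction stimulon. The window was then moved to the 1000 bases before the start codon, after the matches at the start of AOX1A had been seen, so that AOX1A was bound to count there. The form that ends in CAAG reads alike on both strands outside its 5 free bases, while the form that ends in CACG does not. TTGACC and TTGACT share TTGAC. In that window a match to either form was found before AOX1A, NDB2, NDB3 and NDA1, that is 4 of the 10 genes, before 4.39% of the 27443 genes, and before 10 of the 13 stimulon genes. The motif was originally described from AOX1A and other stimulon genes, so the counts for the 10 genes and for the 13 are descriptions and no independent result. The NDA1 site (chr1:2204030-2204050) is shown because this gene did not pass the test.
NDA1 site: gtttCTTGCGCATCAAGttct
Matches therefore stood before 3 genes that rose and before 1 that was not called, and none before NDB4 or NDB1, which rose. The other motifs are common in the start codon window: TTGACC was found before 5 of the 10 genes and 35.0% of all genes, TTGACT before 6 and 50.7%, the I-box GATAAG of light-regulated genes before 5 and 40.8%, and the G-box CACGTG before 4 and 15.1%. A match is a sequence description and does not show that a factor binds there.

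**Figure D4:**
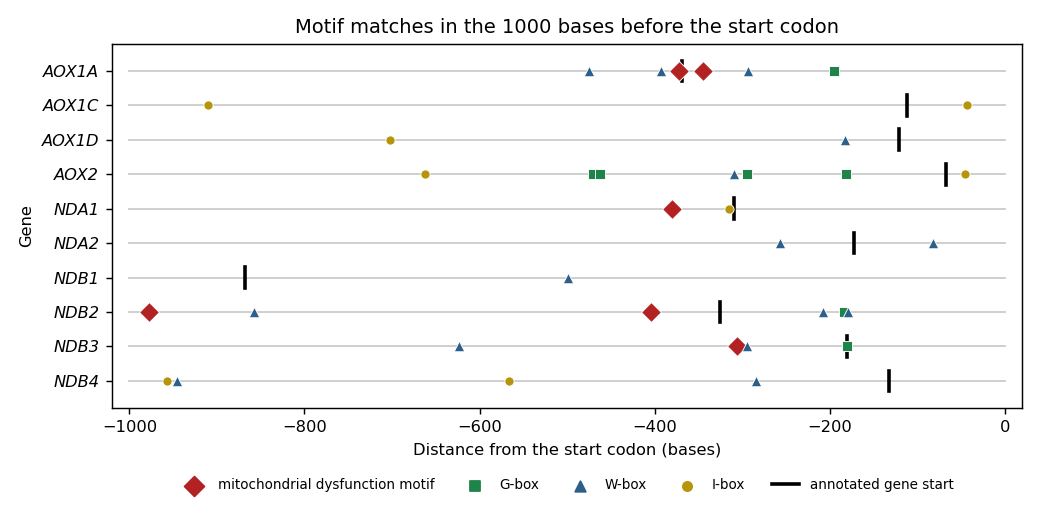
Motif matches in the 1000 bases before the start codon of each gene, with distance from the start codon on the x axis. Red diamonds are the mitochondrial dysfunction motif, green squares the G-box, blue triangles the W-box forms, yellow circles the I-box, and black bars the annotated gene starts. AOX1A holds 2 diamonds at its gene start, NDB2 holds 2, and NDB3 and NDA1 hold 1 each.

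The other genes of the same families that had values, without AOX1B, changed little. NDC1 (AT5G08740), a type II dehydrogenase known from plastids as well as mitochondria, averaged 5.60 ± 0.354 FPKM in lon1-1 and 5.64 ± 0.336 FPKM in wt (SD, n = 3 each) and was not called (log2 fold change -0.01, limma adjusted p = 0.895). PTOX (AT4G22260, annotated IM), the plastid terminal oxidase related to alternative oxidase, rose slightly, with 16.8 ± 0.358 FPKM in lon1-1 and 14.4 ± 0.19 FPKM in wt, a log2 fold change of 0.21 (adjusted p = 0.000577, limma). The uncoupling proteins, which dissipate the proton gradient by another route, both rose. PUMP1 (AT3G54110) had 114.61, 118.31 and 112.54 FPKM in lon1-1 A, B and C, and 56.12, 55.25 and 56.7 FPKM in wt A, B and C. PUMP2 (AT5G58970) averaged 8.64 ± 0.229 FPKM in lon1-1 and 4.63 ± 0.28 FPKM in wt, with log2 fold changes of 1.03 for PUMP1 and 0.78 for PUMP2.

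Alternative oxidase is activated when thioredoxin reduces a disulfide between its subunits. Of 5 genes of that system 2 rose, 1 fell and 2 were not called, with a median log2 fold change of 0.10. The share called was below the 77.0% of all tested genes. TRXO1 (AT2G35010), a mitochondrial thioredoxin, averaged 9.87 ± 0.671 FPKM in lon1-1 and 7.65 ± 1.11 FPKM in wt (log2 fold change 0.34, limma adjusted p = 0.00624). NTRA (AT2G17420), a thioredoxin reductase, had a log2 fold change of 0.29, and TRXO2 (AT1G31020) one of -0.14. These are small changes beside that of AOX1A.

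Of 8 regulators known to act on AOX1A, 6 passed the filter, 2 of which rose, 3 fell and 1 was not called. The share called was near the 77.0% of all tested genes, and the median was -0.08. WRKY63 (AT1G66600) and MYB29 (AT5G07690) were below the filter. WRKY63 averaged 0.24 FPKM in lon1-1 and 1.13 FPKM in wt, without overlap. Fitted without the filter, where 28.0% of genes were lower, WRKY63 had a log2 fold change of -0.78 (limma adjusted p = 0.000242). MYB29 averaged 0.00667 FPKM in lon1-1 and 0 FPKM in wt. NAC013 (AT1G32870), an activator through the dysfunction motif, had 17.81, 16.89 and 17.13 FPKM in lon1-1 A, B and C, and 5.08, 5.60 and 5.63 FPKM in wt A, B and C, a log2 fold change of 1.51. NAC017 (AT1G34190), the other motif-binding factor named above, went the other way, with 38.6 ± 0.34 FPKM in lon1-1 and 42.2 ± 0.0503 FPKM in wt, a log2 fold change of -0.13 (limma adjusted p = 0.00313). WRKY40 (AT1G80840), known as a repressor, averaged 8.86 ± 0.40 FPKM in lon1-1 and 20.7 ± 0.50 FPKM in wt and had a log2 fold change of -1.14. ABI4 (AT2G40220), also known as a repressor of AOX1A, averaged 6.26 ± 0.325 FPKM in lon1-1 and 0.25 ± 0.0173 FPKM in wt, a log2 fold change of 2.54, and passed the filter through lon1-1 alone. WRKY40 and ABI4 thus differed in opposite directions, ABI4 from a wt mean below 1 FPKM. The part of these regulators in the AOX1A values was not tested.

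Dysfunction stimulon genes outside the families rose in 11 of 13 members, 1 fell and 1 was not called. Of all tested genes 77.0% were called, 44.7% higher and 32.3% lower. The median log2 fold change of the list was 1.53, against 0.08 for all tested genes. The stimulon genes with the largest change were AT12CYS-2 (AT5G09570), SOT12 (AT2G03760) and AT2G41730, with log2 fold changes of 3.50, 2.34 and 2.14. Of these, AT12CYS-2 passed the filter through lon1-1 alone. The member that fell was OM66 (AT3G50930, log2 fold change -0.36), an outer membrane protein, named here after its value was seen.

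The genes of the path that these enzymes bypass, and of complex II, were counted in the same way, against 77.0% called and 44.7% higher among all tested genes. Of 8 complex I genes 7 rose and 1 was not called (median 0.41), all 3 complex II genes rose (median 0.47), and of 15 genes of complex III, cytochrome c and complex IV 12 rose, 2 fell and 1 was not called (median 0.45). For complex I the largest changes were in CI24 (AT4G02580), EMB1467 (AT5G37510) and CI51 (AT5G08530), with log2 fold changes of 0.61, 0.49 and 0.43. In complex II, succinate dehydrogenase, SDH1-1 (AT5G66760), SDH2-1 (AT3G27380) and SDH2-2 (AT5G40650) had log2 fold changes of 0.88, 0.47 and 0.30. CI51 of complex I carries the site that oxidises NADH, and averaged 125 ± 3.59 FPKM in lon1-1 and 92.3 ± 1.58 FPKM in wt (SD, n = 3 each). Among the cytochrome path genes CYTC-2 (AT4G10040), COX5B-1 (AT3G15640) and RISP1 (AT5G13430) had log2 fold changes of 0.99, 0.96 and 0.90. The 2 that fell, named after their values were seen, were isoform genes: COX5C-3 (AT5G61310) with -0.58 and QCR7-2 (AT5G25450) with -0.52. The log2 fold changes of CYTC-2, COX5B-1, RISP1 and SDH1-1 were larger than the 0.85 of NDB2, and those of AOX1A, NDB3 and NDB4 were larger than any in these lists, where NDB3 and NDB4 had passed the filter through lon1-1 alone.

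**Figure D5:**
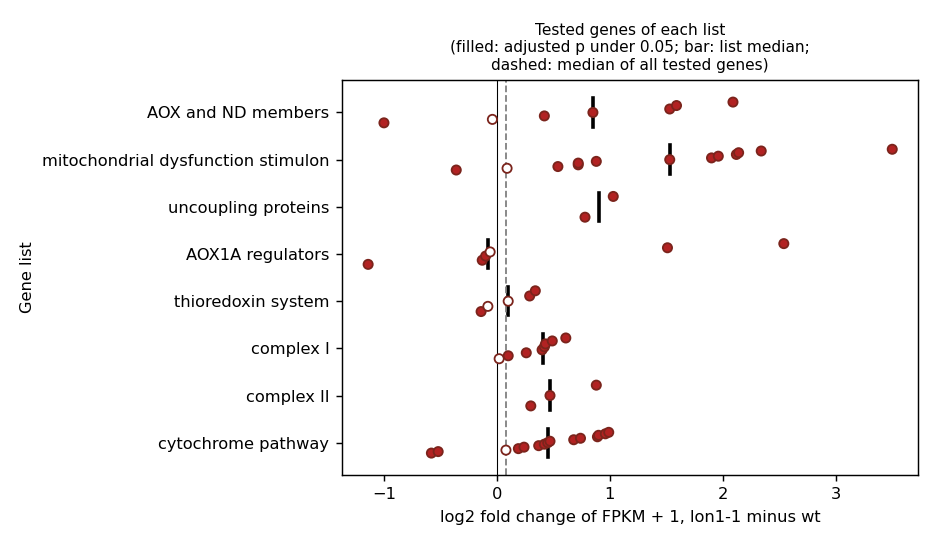
Log2 fold changes (lon1-1 minus wt) of the tested genes of each list, 1 point per gene, filled where the adjusted p is under 0.05. Black bars are list medians and the dashed line is the median of all tested genes (0.08). Medians are 0.85 for the oxidases and dehydrogenases, 1.53 for the stimulon, and 0.41, 0.47 and 0.45 for complex I, complex II and the cytochrome pathway.

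Finally, genes with the most similar profile were sought among 12796 tested genes with a mean of at least 5 FPKM, by the Euclidean distance of log2(FPKM + 1), taken relative to each gene's own wt mean, over the 6 libraries. Nearest to AOX1A were GMI1 (AT5G24280, distance 0.0604), NDPK3 (AT4G11010, a nucleoside diphosphate kinase, 0.0604) and MSL10 (AT5G12080, a mechanosensitive channel, 0.0718). Nearest to NDB4 were XPL1 (AT3G18000, a methyltransferase of phosphocholine synthesis, 0.109), LBD40 (AT1G67100, 0.127) and AT5G56260 (0.128). With 2 genotypes the distance is set mainly by the size of the change and says little else.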

How the data were processed

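Total RNA of the 6 libraries had ribosomal RNA removed and was sequenced strand-specifically, per the labels' protocols. The deposited table holds FPKM per gene and library, computed by the authors and written to 2 decimals; per the submitters' processing notes the tools were HISAT2, Bowtie2 and RSEM and the build TAIR10, with no roles or versions. All 44279 RefSeq transcript accessions of the table, versions included, and all 30 of its mitochondrial locus tags were found in the RefSeq annotation of TAIR10.1, which was therefore used for loci, positions and sequences. No column of samples was left unmapped.

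FPKM were tested with limma 3.58.1 in R 4.3.3 (trend option on; values as log2(FPKM + 1); a single genotype term), for genes that reached 1 FPKM in 3 or more libraries, with Benjamini-Hochberg adjustment and a threshold of 0.05. Genes under the filter were fitted with all listed genes. The test was tried first on simulated data in which few genes were changed, unlike here, so that run does not bear on these calls. Sums, shares and lists carry no test.

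Depth was estimated by finding the number of fragments, in steps of 250000, at which low FPKM of single-transcript genes of 450 to 1000 bases became whole numbers of fragments, after taking 180 bases off each length. Between 97.3% and 97.8% of values then lay within 0.15 of a whole number. The fit chose the smallest mean distance to a whole number, so this share is no independent check. Fragment numbers are estimates, and 2 decimals of FPKM leave an error of up to 0.4 fragments.

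Named genes are the 10 members, NDC1, PTOX and LON1, up to 3 called genes of each pathway list with the largest absolute change, and the 3 nearest profiles of AOX1A and NDB4. Outside this rule, marker genes are named to describe the tissue, and NAC017, WRKY63, MYB29, OM66, COX5C-3 and QCR7-2 were named after their values were seen. The members, lists and rule were chosen with earlier results of these data known. Coding identity is from global alignments (Biopython 1.88).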

Additional observations from a re-analysis of the deposited data

How the results depend on the processing

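The call and direction of AOX1A, AOX1D, NDB1, NDB2, NDB3 and NDB4 were the same under every alternative run: pseudocounts of 0.1 and 0.5, no filter, a filter on the mean, median-ratio and upper-quartile scaling, no trend, the replicate block, and leaving out each library. AOX1D did not pass the filter on the mean, and was not fitted under it. Where leaving out a library took AOX1D, NDB3 or NDB4 below the filter, they were fitted without it, an alternative chosen after seeing the data. Log2 fold changes ranged from 1.46 to 1.58 for AOX1A, 0.35 to 0.46 for NDB1, 0.78 to 0.91 for NDB2, 1.54 to 2.35 for NDB3, 2.05 to 3.79 for NDB4 and -2.19 to -0.99 for AOX1D, the values farthest from 0 of NDB3, NDB4 and AOX1D coming with the pseudocount of 0.1, by construction of the scale.

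AOX1C, AOX2, NDA1 and NDA2 were called under no alternative. NDA1 stayed above 0 in all of them, from 0.06 to 0.33. It came nearest to the threshold without lon1-1 A (limma adjusted p = 0.0517). Leaving out single libraries moved AOX1C between -0.02 and 0.07 and NDA2 between -0.09 and 0.01, across 0 in each case. With median-ratio scaling NDA2 was at -0.10 (adjusted p = 0.145), and summed means moved by more than 1 SD to 19.5 FPKM for the oxidases in wt, and to 44.0 FPKM for all dehydrogenases and 35.1 FPKM for the outer-side ones in lon1-1. That scaling moved the median of all genes to 0.012.

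The replicate block, with the library letter as a term, gave 8145 genes higher and 5901 lower, against 8182 and 5922, and changed no call of the 10 genes. The letters showed no pairing: deviations of same-letter libraries from their genotype means correlated at 0.06, 0.017 and -0.032 across genes. Of 392 recomputed list counts, 378 stayed within 1.5 times. The 14 others were counts of 2 or fewer. The lists of AOX1A regulators and thioredoxin genes were among them: the 2 AOX1A regulators higher became 1 without any lon1-1 library, since ABI4 then missed the filter, and the 1 thioredoxin gene lower became 0 without lon1-1 B or C or wt A or B.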
